A study of Homo sapiens with 6 samples.

Results

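The genes described here are the cyclins, kinases and inhibitors that set the pace of the G1 phase of the cell cycle, in 786-O cells in which PLEKHO1 was targeted. They were taken by symbol: every probe set on the array annotated with exactly 1 gene symbol was kept where that symbol was CCND1, CCND2, CCND3, CDK4, CDK6, RB1, CDKN1A, CDKN1B, CDKN1C or CDKN2C. This gave 27 of the 44988 probe sets tested, for 9 of the 10 genes, and CDKN2C was not analysed here. The 10 genes were listed by function, but with earlier results of these arrays known, chiefly the falls of CCND1 and CDKN1C. Their differences between the groups, and the calls made on them, are therefore a description, and nothing is supported by their number.

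786-O is a long-established human line derived from renal carcinoma of the clear cell type. The cells received, by lentivirus, either a short hairpin RNA (shRNA) targeting PLEKHO1 (shPLEKHO1, 3 arrays) or a negative control shRNA (shNC, 3 arrays), so the control cells carried a lentiviral shRNA too. Total RNA was measured on 6 single-colour Affymetrix arrays. The labels name no second shRNA against PLEKHO1, so a lower level of PLEKHO1 and other effects of that shRNA cannot be told apart. The labels also do not say whether replicates were separate cultures, so the spread behind each test is that between arrays and may be technical.

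D cyclins (CCND1, CCND2 and CCND3) are made in response to growth signals and bind the kinases CDK4 and CDK6. The active pairs phosphorylate the retinoblastoma protein RB1, which then releases E2F factors, and the cell moves towards S phase. Inhibitors of the CIP/KIP family (p21 from CDKN1A, p27 from CDKN1B and p57 from CDKN1C) block CDK2 complexes and also bind cyclin D complexes, whereas INK4 proteins such as p18 (CDKN2C) bind CDK4 and CDK6 directly. In renal carcinoma cells without VHL, such as 786-O, cyclin D1 is known as a target gene of HIF-2.

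CCND1 and the CIP/KIP inhibitors were lower with shPLEKHO1, and CDK6 was higher. Of the 27 probe sets, 10 fell, 4 rose and 13 did not pass. "Fell", "rose" and "called" stand here for a Benjamini-Hochberg adjusted p under 0.05 in limma, fitted over all 44988 probe sets. Among all probe sets 15.7% fell and 17.3% rose, which made 33.0% called. Because the genes were listed with this comparison known, nothing is read from the members' share. The falls were all 4 probe sets of CCND1, all 3 of CDKN1C, both of CDKN1B and 1 of 2 of CDKN1A, and the rises were all 4 probe sets of CDK6. No probe set of CCND2, CCND3, CDK4 or RB1 was called, and no gene had probe sets called in both directions. In bulk RNA, fewer cells in a given state and less RNA per cell cannot be told apart.

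A log2 difference is the shPLEKHO1 mean minus the shNC mean of log2(intensity + 1) after quantile normalization, and it is given ± SE, with n = 3 arrays in each group. Intensities are the deposited values, in arbitrary units, and the level of 1 probe set cannot be set against that of another. The number of arrays limits the precision. The targeted gene, PLEKHO1, had intensities of 110.3, 116 and 97.4 on the shPLEKHO1 arrays, against 135, 143 and 126 on the shNC arrays. Its single probe set fell 1.25-fold (-0.32 ± 0.08), and the groups did not overlap. Of the probe sets tested, 4620 fell further.

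**Figure D1:**
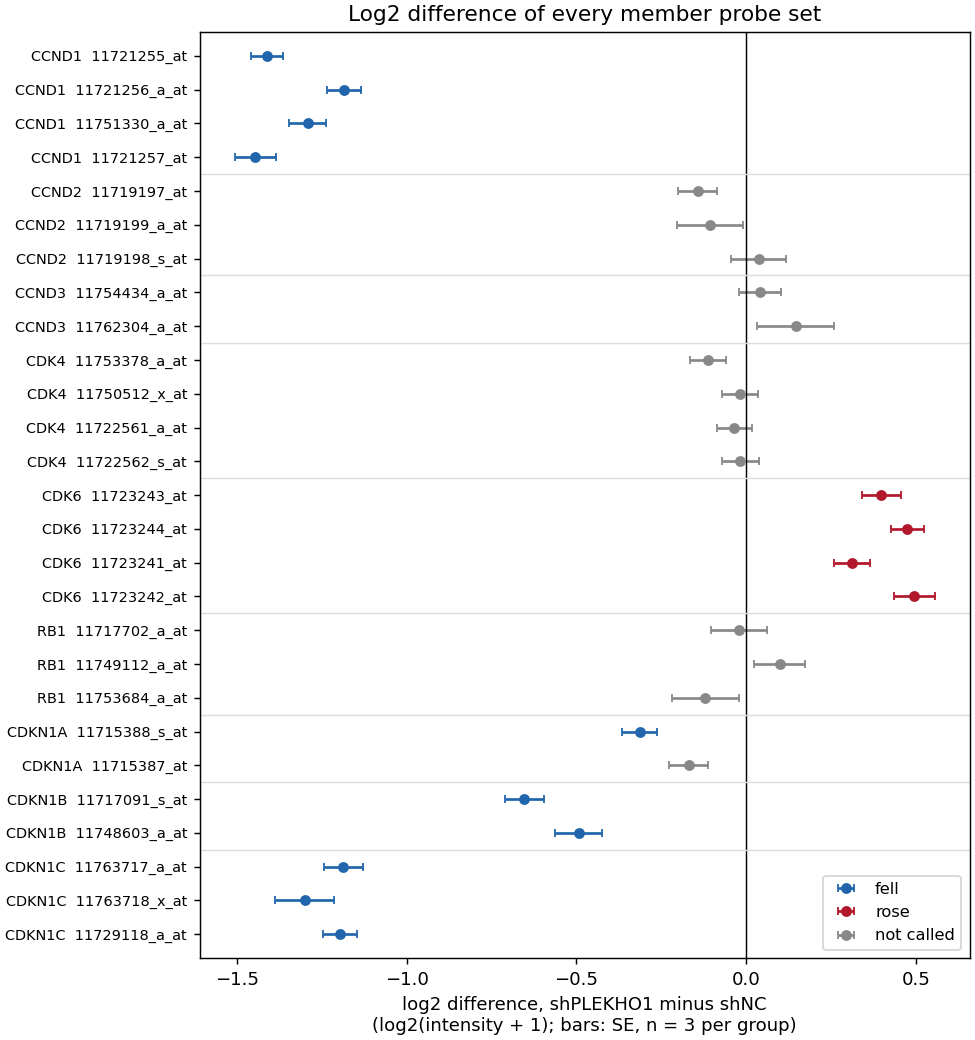
Log2 difference (shPLEKHO1 minus shNC, horizontal axis) of each of the 27 probe sets, grouped by gene, as points with bars of ± 1 SE (n = 3 arrays per group). The 4 probe sets of CCND1 lie between -1.45 and -1.18, the 3 of CDKN1C between -1.30 and -1.19 and the 4 of CDK6 between 0.31 and 0.49.

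Cyclin D1 was read by 4 probe sets. The brightest, 11721255_at, had intensities of 992, 1034 and 969.8 on the shPLEKHO1 arrays, against 2733, 2608 and 2633 on the shNC arrays. Every shPLEKHO1 array read far below every shNC array, with means of 999 ± 32.8 and 2658 ± 66.3 (SD, n = 3 each). CCND1 was 2.66-fold lower by this probe set (log2 difference of -1.41 ± 0.05), with a 95% confidence interval of the fold from 2.47 to 2.87.

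Probe set 11721256_a_at of CCND1 read 631, 673 and 608 with shPLEKHO1, against 1480.5, 1421 and 1404 with shNC. Probe set 11751330_a_at read 322, 349 and 311 with shPLEKHO1, against 862, 777 and 772 with shNC. The dimmest of CCND1, 11721257_at, read 212, 241 and 242 with shPLEKHO1, against 645, 618 and 632 with shNC. In none of these did the groups overlap. The falls were of 2.27-fold (-1.18 ± 0.05) for 11721256_a_at, 2.45-fold (-1.29 ± 0.06) for 11751330_a_at and 2.72-fold (-1.45 ± 0.06) for 11721257_at.

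When each shPLEKHO1 array was set against each shNC array after normalization, the brightest CCND1 probe set was lower in 9 of 9 pairs, by 2.60-fold to 2.73-fold. Over the 4 probe sets the smallest fold of any pair was 2.19 and the largest 2.97. Among all 44988 probe sets, 142 fell further than 11721257_at, and 340 fell further than 11721256_a_at, the CCND1 probe set with the smallest fall. A fall of at least 2-fold was seen in 7 of the 27 probe sets, those of CCND1 and CDKN1C, and in 1.26% of all probe sets; the list was made with these falls known, so nothing is read from this either.

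Cyclin D2 is a D cyclin known from lymphoid and germ cells. Its brightest probe set, 11719197_at, had 11.8, 12.0 and 11.5 with shPLEKHO1, against 12.7, 12.6 and 13.8 with shNC. The groups did not overlap, but the difference was small (-0.14 ± 0.06) and did not pass. Its other probe sets were at -0.11 ± 0.10 and 0.04 ± 0.08, with overlapping groups. The array's background control probe sets, which are sorted by the GC content of their probes, averaged from 4.80 at a GC count of 3 to 2063 at 25. All CCND2 values lay between 7.02 and 13.8. The controls nearest to that span, at GC counts of 13 (7.01) to 16 (13.6), are picked here by the CCND2 values themselves. The GC content of the CCND2 probes was not used here, so whether CCND2 was above its own background was not tested.

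Cyclin D3 is the D cyclin best known from developing lymphocytes. Its brighter probe set, 11754434_a_at, read 284, 268 and 269 with shPLEKHO1, against 263, 262 and 283 with shNC. The groups overlapped, and the difference of 0.04 ± 0.06 did not pass, with a 95% confidence interval from -0.10 to 0.18. The other CCND3 probe set, 11762304_a_at, read between 8.51 and 10.4 with shPLEKHO1 and between 6.67 and 9.79 with shNC (0.15 ± 0.11, not called). Of the D cyclins, CCND1 was thus the one with called probe sets. The difference in response between the D cyclin genes was not tested.

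**Figure D2:**
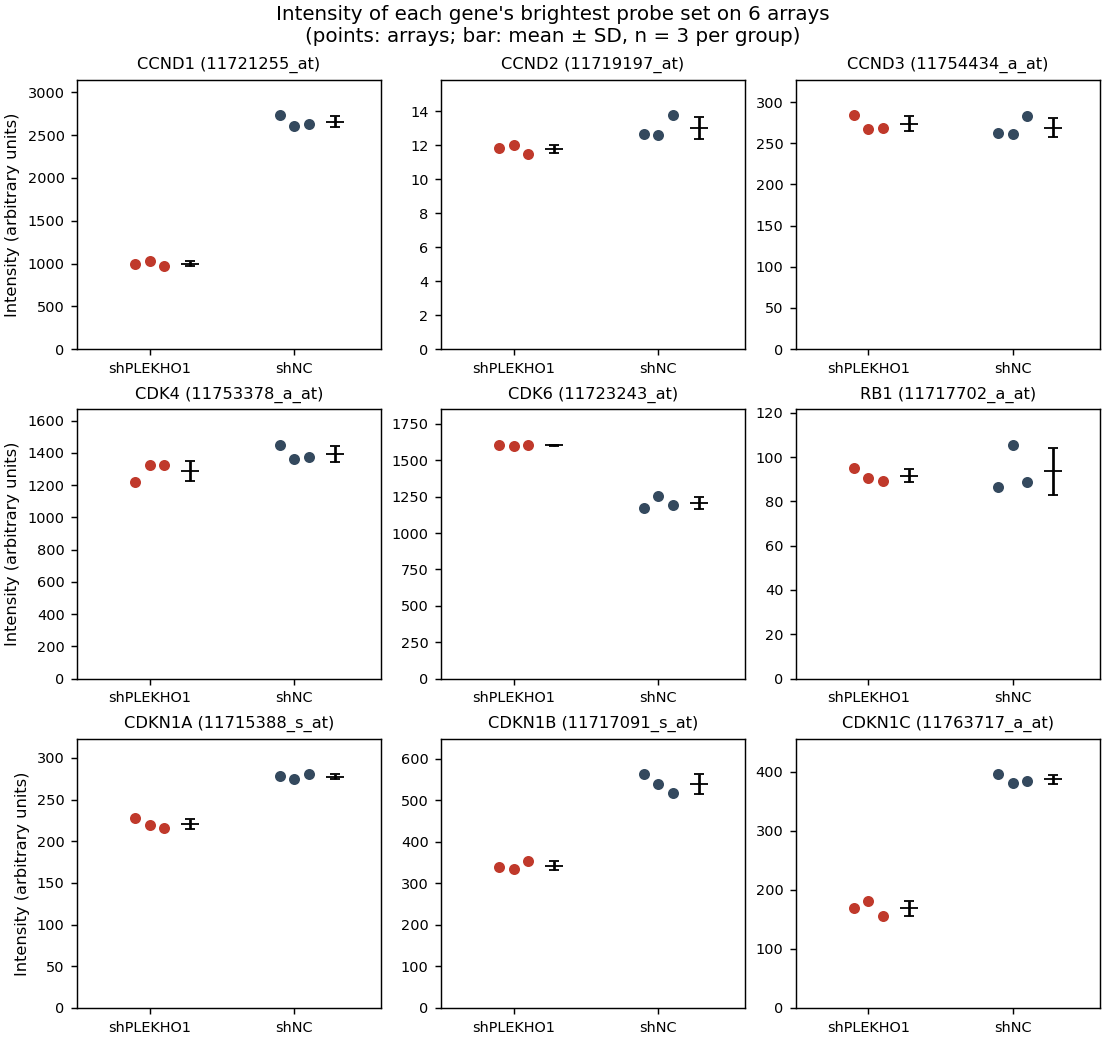
Intensity (vertical axis, arbitrary units, from 0) of the brightest probe set of each of the 9 genes, with shPLEKHO1 arrays left and shNC arrays right. Points are arrays and bars are mean ± SD (n = 3 per group); CCND1, CDKN1B and CDKN1C are lower and CDK6 is higher on all shPLEKHO1 arrays, and CCND3 and RB1 overlap.

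The kinases that pair with D cyclins differed in their readings. CDK6 was higher with shPLEKHO1 by all 4 of its probe sets. Its brightest, 11723243_at, read 1608, 1598 and 1604 with shPLEKHO1, against 1175, 1251 and 1192 with shNC. The shPLEKHO1 arrays were close together and all above the shNC arrays, and the difference came to 1.32-fold (0.40 ± 0.06, 95% confidence interval of the fold from 1.20 to 1.44).

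Probe set 11723244_at of CDK6 read 891, 926 and 926 with shPLEKHO1, against 657, 642 and 655 with shNC (0.47 ± 0.05). Probe set 11723241_at read 805, 881 and 795 with shPLEKHO1, against 710.4, 636 and 643 with shNC (0.31 ± 0.05). The dimmest, 11723242_at, read 114, 129.7 and 116 with shPLEKHO1, against 86.7, 80.4 and 86.7 with shNC (0.49 ± 0.06). The 4 rises ran from 1.24-fold to 1.41-fold, and in none did the groups overlap.

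CDK4, the other kinase of D cyclins, had 4 probe sets, and none was called. The brightest, 11753378_a_at, read 1217, 1327 and 1324 with shPLEKHO1, against 1451, 1360.1 and 1372 with shNC. These groups did not overlap, with a difference of -0.11 ± 0.05 and a 95% confidence interval from -0.23 to 0.01. The other 3 probe sets had overlapping groups and differences between -0.03 and -0.02. Their 95% confidence intervals lay between -0.15 and 0.11, so a change of the size seen for CDK6 lay outside them. By the manufacturer's naming, 11750512_x_at and 11722562_s_at among them may also match other transcripts.

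RB1, the substrate of these kinases and itself a tumour suppressor, had 3 probe sets. The brightest, 11717702_a_at, read 95.2, 90.5 and 89.3 with shPLEKHO1, against 86.3, 106 and 88.6 with shNC. The groups overlapped in all 3 probe sets, with differences of -0.02 ± 0.08, 0.10 ± 0.07 and -0.12 ± 0.10. The widest of the 95% confidence intervals ran from -0.35 to 0.11. The array reads messenger RNA, and the phosphorylation of RB1 was not measured.

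The CIP/KIP inhibitors fell by 6 of their 7 probe sets, where 15.7% of all probe sets fell; they were listed with this known, so nothing is read from that count. CDKN1C, an imprinted gene known for its loss in an overgrowth syndrome, had the largest falls of the family. Its brightest probe set, 11763717_a_at, read 169, 182 and 156 with shPLEKHO1, against 397, 382 and 385 with shNC. Means were 169 ± 13.1 with shPLEKHO1 and 388 ± 7.87 with shNC (SD, n = 3 each), with no overlap, and the fall was of 2.28-fold (-1.19 ± 0.06).

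Probe set 11729118_a_at of CDKN1C read 108, 111 and 104 with shPLEKHO1, against 259, 238 and 254 with shNC (-1.20 ± 0.05). Probe set 11763718_x_at read 144, 169 and 129 with shPLEKHO1, against 367, 358 and 365 with shNC (-1.30 ± 0.09). By the manufacturer's naming, an x_at probe set holds probes that may also match other transcripts. It had the widest spread of the CDKN1C probe sets among shPLEKHO1 arrays, with an SD of 20.5, and its fall was close to those of the others.

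CDKN1B, which codes for p27, fell by both probe sets. Probe set 11717091_s_at read 340.0, 334 and 355 with shPLEKHO1, against 564, 539 and 517 with shNC. The groups were well apart, and the fall was of 1.57-fold (-0.65 ± 0.06, 95% confidence interval of the fold from 1.44 to 1.72). In the manufacturer's naming, an s_at probe set may match transcripts of more than 1 gene. This also applies to the brightest probe set of CDKN1A, to 11719198_s_at of CCND2 and to 11722562_s_at of CDK4. Probe set 11748603_a_at read 112, 119.9 and 102 with shPLEKHO1, against 168, 146 and 161 with shNC, and fell 1.41-fold (-0.49 ± 0.07) without overlap.

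CDKN1A, which codes for p21 and is the best known target gene of p53 among CDK inhibitors, had the smallest differences of the 3 inhibitors. Probe set 11715388_s_at read 228, 219.8 and 215 with shPLEKHO1, against 278, 274 and 281 with shNC. It fell 1.24-fold (-0.31 ± 0.05), and the groups did not overlap. Probe set 11715387_at read 158, 149 and 152 with shPLEKHO1, against 169, 173 and 179 with shNC. Here too the groups did not overlap, but the difference of -0.17 ± 0.06 did not pass. This call depends on the setting, since the probe set was called in 4 of 14 alternatives.

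Promoter sequence is shown for members that had a called probe set and a matching RefSeq entry, so that the CIP/KIP genes that fell stand beside the kinase that rose. RefSeq promoters (build GRCh38.p14) matched 7 of the 10 genes; CCND1, CCND2 and CDKN1C did not match. The lines below give the 250 bases before an annotated start, 5′ to 3′ on the gene's strand. Capitals mark the GC box GGGCGG, the core of the site of SP1, and the CCAAT box, read on both strands. The stretches are CDKN1A at chr6:36678464-36678713 (plus strand), CDKN1B at chr12:12717118-12717367 (plus strand) and, of the 2 entries for CDK6, the first listed, at chr7:92836574-92836823 (minus strand).
CDKN1A: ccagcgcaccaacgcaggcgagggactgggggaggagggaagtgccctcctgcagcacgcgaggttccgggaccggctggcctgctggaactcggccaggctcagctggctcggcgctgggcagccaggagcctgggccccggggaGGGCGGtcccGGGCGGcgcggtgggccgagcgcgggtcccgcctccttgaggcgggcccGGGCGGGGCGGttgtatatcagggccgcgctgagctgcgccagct
CDKN1B: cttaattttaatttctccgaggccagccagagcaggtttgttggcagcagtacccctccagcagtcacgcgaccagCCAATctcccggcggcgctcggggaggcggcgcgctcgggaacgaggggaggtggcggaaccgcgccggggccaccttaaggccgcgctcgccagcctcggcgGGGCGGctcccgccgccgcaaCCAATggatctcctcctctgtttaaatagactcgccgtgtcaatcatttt
CDK6: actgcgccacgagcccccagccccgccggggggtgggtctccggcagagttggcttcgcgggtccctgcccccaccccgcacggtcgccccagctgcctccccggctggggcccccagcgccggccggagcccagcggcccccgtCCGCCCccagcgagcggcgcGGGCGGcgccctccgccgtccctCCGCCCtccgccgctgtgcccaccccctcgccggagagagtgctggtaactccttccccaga

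The CDKN1A stretch held 4 matches of the GC box, of which the last 2 overlap, and 0 of CCAAT. The CDKN1B stretch held 1 GC box and 2 CCAAT matches, and the CDK6 stretch held 3 GC boxes and 0 CCAAT matches. A GC box was present in 42.6% and CCAAT in 32.0% of 35116 RefSeq promoter stretches of the same length. The letters ACGTG, a form of the core that HIF factors read (18.5% of all stretches), had 0 matches on either strand in these 3 windows. The same was so for TATAAA, the TATA box (10.7%), and GTAAACA, a forkhead motif (2.98%). The form GCGTG of the HIF core was not searched, so whether these windows hold a HIF core was not tested. The other CDK6 entry, at chr7:92833960-92834209 (minus strand), held 2 matches of ACGTG and 0 of the other motifs searched. These matches describe the letters in the windows and do not show binding.

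Groups did not overlap in 17 of the 27 probe sets, 13 lower and 4 higher with shPLEKHO1, where 20.0% of all probe sets were lower and 23.0% higher without overlap. The lower ones that were not called were 1 probe set each of CCND2, CDK4 and CDKN1A, named above. Within a group the SD of a member probe set on the log2 scale ranged from 0.01 to 0.23, and the widest was that of 11762304_a_at, a dim probe set of CCND3, on the shNC arrays. The median absolute log2 difference of the 27 probe sets was 0.31, beside 0.12 over all probe sets.

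**Figure D3:**
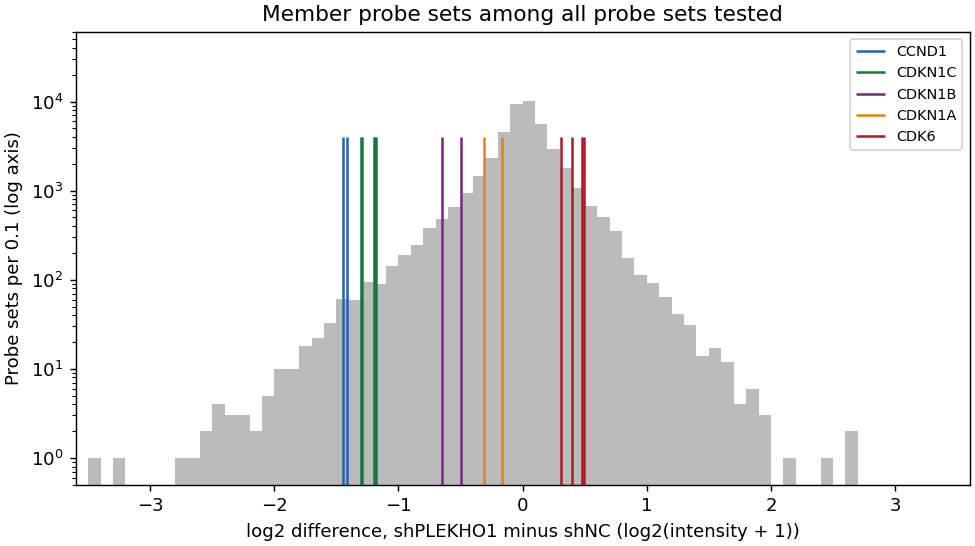
Number of probe sets (vertical log axis) by log2 difference (shPLEKHO1 minus shNC, horizontal axis, steps of 0.1) over all 44988 probe sets, in grey, with the probe sets of CCND1, CDKN1C, CDKN1B, CDKN1A and CDK6 as coloured lines. CCND1 and CDKN1C lie in the lower tail and CDK6 on the upper side; 2152 probe sets had a higher difference than the highest of CDK6 and 4756 a higher one than the lowest of CDK6.

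The other genes of the G1 pathway were taken from a list drawn up by function, but with earlier results of these arrays known. Of that list 38 genes were measured, each read from its brightest probe set. Of the 38, 7 fell, 10 rose and 21 did not pass, which is 44.7% called, beside 34.1% of the 18132 genes read the same way (16.0% fell and 18.1% rose). Their median log2 difference was 0.05, beside 0.01 over all genes, and their median absolute difference was 0.20, beside 0.12. The list was not tested as a set, and nothing is read from its share called or from its median absolute difference.

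Of 5 transcription factors and cofactors known to drive CCND1, 3 rose and 2 fell by the brightest probe set, where 18.1% of all genes rose and 16.0% fell. Those that rose were EPAS1, JUN and MYC, the last at 0.22 ± 0.04 by its only probe set. EPAS1, which codes for HIF-2 alpha, rose 1.45-fold, with 1659, 1859 and 1749 on shPLEKHO1 arrays, against 1306, 1083 and 1231 on shNC arrays (0.54 ± 0.07), and both of its probe sets rose. EPAS1 and CCND1 lay on opposite sides of 0, and whether HIF-2 had a part in the fall of CCND1 was not tested. JUN, a subunit of AP-1, rose 1.44-fold by its brightest probe set (0.53 ± 0.05), with 3 of its 4 probe sets called and a mean over the 4 of 0.34. CTNNB1, which codes for beta-catenin, fell in each of 8 probe sets, on average by 0.68 on the log2 scale, and the brightest of them was 1.30-fold lower (-0.38 ± 0.05). TCF7L2, the DNA-binding partner of beta-catenin, fell 2.05-fold (-1.04 ± 0.07) by a probe set at 98.9, 85.6 and 90.9 with shPLEKHO1, against 203, 186 and 183 with shNC. Over all 7 probe sets of TCF7L2, 4 of which fell, the average difference was -0.44.

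Of 6 genes for the turnover of D cyclins, 3 fell and 0 rose by the brightest probe set, where 16.0% of all genes fell and 18.1% rose. FBXO31, an F-box protein that recognises cyclin D1 after DNA damage, fell 1.39-fold by its only probe set (-0.47 ± 0.06). FBXO4, a further F-box protein reported to bind cyclin D1, fell 1.68-fold by its brightest probe set (-0.75 ± 0.05), which was the only 1 of its 3 that was called, and the mean over the 3 was at -0.22. GSK3B, the kinase that marks cyclin D1 for export and degradation, had 2 probe sets, of which the brighter fell 2.17-fold (-1.12 ± 0.06) and the dimmer rose. Because of this split the direction for GSK3B depends on the probe set. AMBRA1, a receptor of the ubiquitin ligase for D cyclins, was at -0.02 ± 0.07 and did not pass. FBXW8, an F-box protein also reported to act on cyclin D1, was at 0.02 ± 0.07 by its brightest probe set and did not pass, although 2 of its 4 probe sets fell.

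RBL2, which codes for the RB1 relative p130 of resting cells, fell 2.63-fold (-1.39 ± 0.09). It read 142, 124 and 123 with shPLEKHO1, against 381, 349 and 303 with shNC, and all 4 of its probe sets fell. RBL1, which codes for p107, was at 0.03 ± 0.10 and did not pass. CDKN3, a phosphatase that acts on CDK2, fell 1.74-fold (-0.80 ± 0.05) with 7 of its 8 probe sets. The INK4 inhibitors CDKN2A (0.20 ± 0.08), CDKN2B (0.07 ± 0.05) and CDKN2D (0.10 ± 0.05) did not pass, and the brightest probe sets of CDKN2A and CDKN2B were dim, with means of 32.2 and 15.3 with shPLEKHO1 and of 27.8 and 14.5 with shNC.

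Of 6 genes of the later G1 step, which pair CDK2 with cyclins E and A, 2 rose and none fell by its brightest probe set (limma, 18.1% of all genes rose and 16.0% fell). CDK2 was at 0.06 ± 0.05, cyclin E1 (CCNE1) at 0.07 ± 0.06 and cyclin E2 (CCNE2) at -0.27 ± 0.09, none of which passed, although the other CCNE2 probe set fell. CCNA1, which codes for the germ cell cyclin A1, rose 2.37-fold (1.25 ± 0.08), with 112, 109 and 113 on shPLEKHO1 arrays, against 50.7, 47.5 and 42.2 on shNC arrays. Cyclin A2 (CCNA2), which acts in S phase and at mitosis, rose by 1 of its 2 probe sets, the brighter (0.26 ± 0.05). The 3 subunits of the CDK-activating kinase, CCNH (0.31 ± 0.04), CDK7 (0.21 ± 0.06) and MNAT1 (0.23 ± 0.06), rose, each by its only probe set. Among all genes 18.1% rose, and these 3 were named after their values were seen. Cyclin C (CCNC), grouped with them in the list, was at 0.14 ± 0.06 by its brightest probe set. It did not pass, although 1 of its 3 probe sets rose. Without shNC replicate 3, shPLEKHO1 replicate 1 or shPLEKHO1 replicate 2, CDK7 was no longer called, with adjusted p in limma of 0.072, 0.0608 and 0.0601. Of 3 genes for CDK4 folding, CDC37, the HSP90 co-chaperone of CDK4 and CDK6, rose (0.32 ± 0.04), where 18.1% of all genes rose. HSP90AA1 (-0.06 ± 0.04) and HSP90AB1 (0.02 ± 0.04) did not pass. Of the 6 genes for the turnover of p27 and cyclin E, only CKS1B rose (0.23 ± 0.06), where 18.1% of all genes rose. All 3 probe sets of CKS1B rose. The call by its brightest did not hold without shNC replicate 2, shNC replicate 3 or shPLEKHO1 replicate 2 (adjusted p in limma of 0.0783, 0.0691 and 0.0703). SKP2 was at -0.07 ± 0.05 by its brighter probe set and did not pass, while the other fell (-0.23). The 10 genes of the list with the largest called differences, from RBL2 to CTNNB1, had adjusted p of at most 0.000672 in limma (FBXO31).

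**Figure D4:**
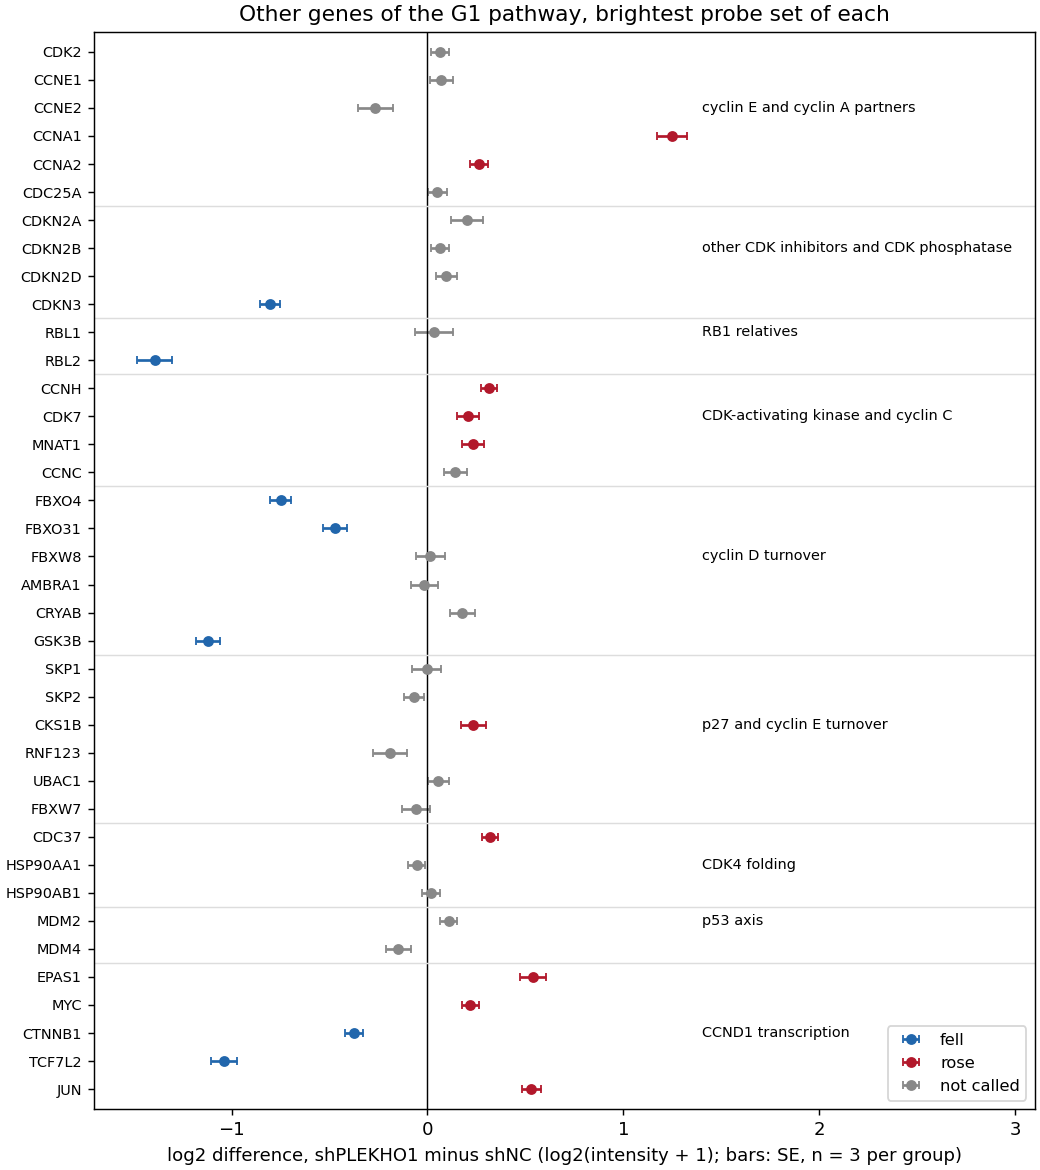
Log2 difference (shPLEKHO1 minus shNC, horizontal axis) of the brightest probe set of each of 38 other G1 pathway genes, grouped by role, as points with bars of ± 1 SE (n = 3 arrays per group). The lowest is RBL2 at -1.39 and the highest CCNA1 at 1.25.

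The pattern of CCND1 over the 6 arrays was shared by many genes. Of 22494 probe sets with a mean above the median, 1351 other probe sets correlated with the brightest CCND1 probe set at a Pearson r above 0.99. The 5 most alike genes were RTN4, PPP1CC, DNAH11, PTGES3 and PTPRK, with r between 0.9998 and 0.9999. RTN4, a protein of the tubular endoplasmic reticulum, averaged 1894 with shPLEKHO1 and 5188 with shNC (-1.46 ± 0.05). PPP1CC, a catalytic subunit of protein phosphatase 1, averaged 1125 with shPLEKHO1 and 2216 with shNC (-0.99 ± 0.05). DNAH11 was at -0.73 ± 0.05 by its only probe set, PTGES3 at -1.24 ± 0.05 and PTPRK at -1.47 ± 0.05. Of the 5 probe sets of PTPRK only 3 fell, whereas every probe set of RTN4, PPP1CC, DNAH11 and PTGES3 fell. With 2 groups of 3 arrays such a correlation mostly states that a probe set differed between the groups with little spread within them.

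Median intensity ranged from 55.7 to 57.1 over the 6 arrays. The correlation of log2 values over all probe sets tested was 0.998 for any pair of arrays from the same group and 0.988 or 0.989 for a shPLEKHO1 array with a shNC array. Of 8 measured renal epithelium and clear cell carcinoma markers, VIM, KRT8, KRT18, EPAS1 and PAX8 averaged between 354 (PAX8) and 15448 (VIM) with shPLEKHO1 and between 424 (PAX8) and 14741 (VIM) with shNC, PAX2 averaged 108 with shPLEKHO1 and 136 with shNC, and CDH16 and LRP2 averaged at most 60.7 with shPLEKHO1 and 62.8 with shNC. Of these markers PAX8 (-0.25) and PAX2 (-0.33) fell, and KRT8 (0.32), KRT18 (0.52) and EPAS1 (0.54) rose. CA9 and NDUFA4L2 were not analysed here. The 9 measured markers of white blood cells, endothelium and fibroblasts averaged between 6.61 (PTPRC) and 137 (CD68) over all arrays. The sum of the 3 measured white blood cell markers, most of it CD68, was 160.5 to 186 with shPLEKHO1 and 150.6 to 157 with shNC, while PTPRC, their defining marker, averaged 6.82 with shPLEKHO1 and 6.39 with shNC; the part of such cells in the results was not tested. The 23 background control probe sets ranged up to 2200 with shPLEKHO1 at the highest GC count, a bound that only 1 of the 27 member probe sets, the brightest of CCND1, exceeded, and that with shNC only (999 with shPLEKHO1 and 2658 with shNC), so that bound does not separate genes that were expressed from those that were not.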

How the data were processed

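The 6 arrays, single-colour and from Affymetrix, held RNA of 786-O cells, with 3 arrays for each shRNA by the labels. The deposited values are linear intensity values, 1 per probe set and array, for which the submitters' processing notes name Affymetrix Expression Console. The algorithm chosen there, and whether arrays were normalized to each other, is not given in the sources used here. Of 49395 probe sets, 102 controls, 1832 with several gene symbols and 2473 others without a symbol were left out, which left 44988 probe sets tested; no filter on low values was applied, and all 27 member probe sets were tested. Entrez identifiers served to bring symbols up to date by RefSeq (GRCh38.p14), with 44961 matches. The plan allowed for linear values: log2(intensity + 1) was quantile-normalized over all probe sets. A pseudocount of 1 understates changes of dim genes.

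The comparison used limma 3.58.1 (lmFit, then eBayes) in R 4.3.3, with 4 residual and 4.06 prior degrees of freedom, Benjamini-Hochberg adjustment and a threshold of 0.05. For the other G1 genes the fit ran over 18132 genes, each read from its brightest probe set. The fit was tested on simulated data. The members and lists were chosen with earlier results of these data known. All members are named; of the other G1 list, the 10 largest called differences are named, and of genes like CCND1 the 5 with the highest correlation over 6 arrays. Further genes of that list, such as AMBRA1, CKS1B or the CDK-activating kinase, were named after their values were seen, to describe their role groups. Alternatives were other normalizations, no pseudocount, leaving out dim probe sets, a variance trend, array weights, the replicate block, all non-control probe sets, the mean of probe sets of a gene, and leaving out each array.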

Additional observations from a re-analysis of the deposited data

How the results depend on the processing

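Across 14 alternatives, the number of member probe sets that fell was 10 to 12 and the number that rose was 4 in each. The brightest CCND1 probe set lay between -1.43 and -1.40 on the log2 scale and was called under every alternative run, as were all probe sets of CCND1, CDK6, CDKN1B and CDKN1C. Of 626 recomputed single values, 614 kept their side of the threshold, 5 became called and 7 lost their call; all 3 probe sets of CCND2 and 1 of CCND3 were themselves left out with the dim probe sets. Probe set 11715387_at of CDKN1A was called without normalization between arrays (-0.18, adjusted p = 0.0409 in limma), with a variance trend (0.0338), with array weights (0.0412) and without dim probe sets (0.0338), in a range from 0.0338 to 0.165. Probe set 11753378_a_at of CDK4 was called with a variance trend (adjusted p = 0.0223, in a range from 0.0223 to 0.378). PLEKHO1 stayed called, with an adjusted p of at most 0.0444. Of the other G1 genes, 7 to 10 fell and 8 to 11 rose. The 7 lost calls were those of CDK7 without each of 3 arrays and of CKS1B without each of 3 arrays and with the replicate block (0.23, adjusted p = 0.0629); CDK7 ranged from 0.17 to 0.25 (adjusted p of 0.00282 to 0.072) and CKS1B from 0.19 to 0.28 (0.000487 to 0.0783). With the mean of all probe sets, the differences of the called genes GSK3B (-0.29), FBXO4 (-0.22), TCF7L2 (-0.44), JUN (0.34), CTNNB1 (-0.68) and CCNA2 (0.17) moved by over 1.5 times. Arrays with the same replicate number did not deviate together (correlations of -0.15, -0.15 and -0.04), so the numbers were not taken as pairs; with the replicate block 10 member probe sets fell and 4 rose. The labels give no batch, and depth does not apply to arrays; dim probe sets such as those of CCND2 may carry background.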
